A study of Mus musculus with 9 samples.

Results

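This report compares open chromatin in Res499, a line derived from the mouse melanoma B16 that resists immune checkpoint blockade, with open chromatin in B16 cells that were exposed to interferon gamma. Its members are 6 ATAC-seq libraries of the 9 in the series, chosen by their labels: Res499 replicates 1 to 3 (strain 499 in the labels), with no treatment, and B16_IFNg replicates 1 to 3. The B16_IFNg cells received interferon gamma before they were injected into mice, for 2 weeks in replicates 1 and 2 and for 3 weeks in replicate 3. In both groups tumours were taken on day 15 after injection and the tumour cells were sorted. The remaining 3 libraries, untreated B16 from tumours handled in the same way (B16_untreated), are given beside the results as levels only. The labels give no age, sex or strain of the host mice, do not say whether replicates came from separate mice, and describe Res499 as 1 line, so p-values measure the spread between these libraries and a property of Res499 cannot be told apart from a property of that line.

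ATAC-seq uses a transposase that inserts adapters where DNA is not covered by nucleosomes, so that sequenced fragments pile up at promoters and enhancers in use. Interferon gamma acts through its receptor and the kinases JAK1 and JAK2, and the response includes induction of the transcription factor IRF1. The IRF factors bind interferon-stimulated response elements at genes for antigen presentation and for ligands that restrain T cells, such as Cd274 (PD-L1). Melanocyte identity rests on MITF and SOX10 and on their targets in pigment synthesis. The comparison asks what separates a resistant line from cells that saw interferon without being selected for resistance.

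Each library is a list of peaks called on its own. On chromosomes 1 to 19 and X the lists held 15382, 9214 and 11765 peaks in Res499 and 16229, 13160 and 11179 in B16_IFNg. The groups overlapped: 12120 ± 3099 peaks (SD, n = 3) against 13523 ± 2544 (SD, n = 3), with a two-sided exact permutation p of 0.6, where 0.1 is the smallest that 3 against 3 can give. Peaks covered 5.01 ± 1.28 Mb (SD, n = 3) in Res499 and 5.68 ± 1.09 Mb (SD, n = 3) in B16_IFNg (exact permutation p = 0.7). Read counts were not analysed here, but the number of fragments over a summit (the summit pileup) and the local background it was set against could be solved from the 2 statistics listed with each peak, its fold enrichment and its −log10 p. The lowest background of a list gave a relative depth of 8.68 to 11.1 fragments per kb in Res499 and 7.59 to 9.17 in B16_IFNg (exact permutation p = 0.2) and the ranges overlapped. The median summit held 14 to 23 fragments in Res499 and 15 to 20 in B16_IFNg, which limits how small a change at 1 site can be seen. It held 30 to 35 in untreated B16, so raw summits of untreated libraries are higher throughout and are compared with the others only by rank or after centring. The shortest list is that of Res499 replicate 2, and all libraries were therefore cut to their 9214 most significant peaks; its weakest used peaks reached a −log10 q of only 2.00, against 4.39 to 6.94 in the others.

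Markers of other cells that a sort from a tumour could hold had few calls at their starts. Of 24 marker genes of T and NK cells, myeloid cells, B cells, fibroblasts, endothelium and keratinocytes, 2 had a called region at their start: Spi1, a myeloid factor, in 1 Res499 library, and Col1a1, a collagen gene of fibroblasts, in 1 Res499 and 2 B16_IFNg libraries. The summed summit pileup over the myeloid list was 0 to 10 in Res499 and 0 to 12 in B16_IFNg, and over the fibroblast list 0 to 19 and 11 to 12. Markers of T and NK cells, B cells, endothelium and keratinocytes had no called region within 1 kb of their start. Weaker peaks outside the called regions were not counted. Among 9 melanoma markers 6 had a called start region, and those of Mitf and Pmel were called in all 6 libraries. The start regions of Sox10 and Mlana were called in none of the 6, so the label of melanoma cells rests on Mitf, Pmel, Dct, Tyr, Tyrp1 and Slc45a2. Within 5 kb of a start, 2 of the 6 myeloid markers had a region, with 0, 1 and 1 calls in Res499 and 1, 1 and 2 in B16_IFNg. Their summed summits were 0, 11 and 30 fragments against 18, 11 and 39. Fibroblast markers had 0, 1 and 1 calls in each group at that distance. An endothelial marker was called in 1 of the 6 libraries, B16_IFNg replicate 2. The part of such calls in any result was not tested.

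The used peaks merged into 14733 regions, with a median width of 557 bp. All 6 libraries called 4937 of them (33.5%), while 3764 (25.5%) had a call from 1 library alone. The mean Jaccard index, the share of regions in common between 2 libraries, was 0.624 within groups and 0.622 between them. The difference had a one-sided exact permutation p of 0.2, with 0.1 the smallest possible, and it turned negative without Res499 replicate 2 (-0.000432), B16_IFNg replicate 1 (-0.00158) or B16_IFNg replicate 2 (-0.00444). A greater likeness within groups than between them was not detected. Regions at a coding gene start, within 1 kb, made up 75.7 ± 1.98% of used peaks in Res499 and 74.9 ± 2.68% in B16_IFNg (SD, n = 3 each; exact permutation p = 0.7), and the difference turned negative without Res499 replicate 1 (-0.219 points) or B16_IFNg replicate 3 (-0.666).

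**Figure D1:**
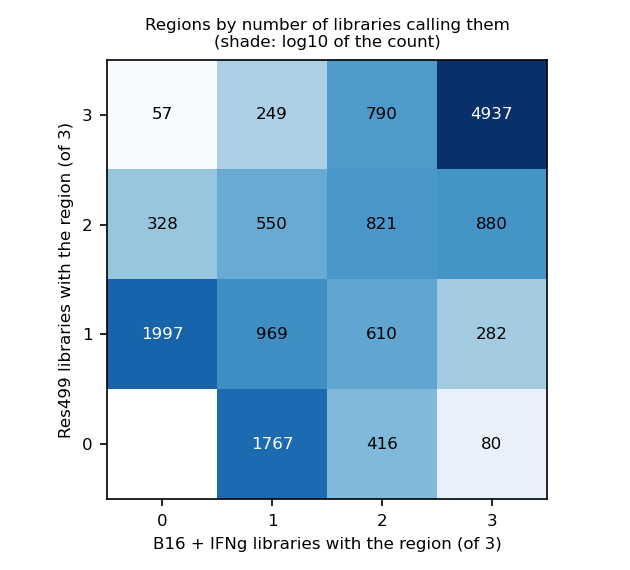
Number of regions by how many Res499 libraries (vertical axis) and how many B16_IFNg libraries (horizontal axis) called them, among the 9214 strongest peaks of each library; shade is the log10 of the count. The corner for all 6 libraries holds 4937 regions, and the corners for 1 group only hold 57 and 80.

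Of the 14733 regions, 57 (0.387%) were called in all 3 Res499 libraries and in no B16_IFNg library, and 80 (0.543%) showed the opposite pattern. These are counts with no test, and most are weak sites near the edge of detection. Their median percentile rank, on a scale where 100 is the strongest of the 9214 peaks, was 30.9 for the Res499 regions and 29.3 for the B16_IFNg regions, against 65.6 for regions called in all 6 libraries. In the full lists 48 of the 57 had a weaker peak in at least 1 B16_IFNg library, and 63 of the 80 had one in at least 1 Res499 library. Res499 replicate 2 had no further peaks to offer, since its whole list was used. Without each library in turn the counts lay between 124 and 173 for regions of Res499 only and between 158 and 252 for regions of B16_IFNg only, since fewer calls are then needed. Of the Res499 regions, 64.9% lay at a coding gene start, and of the B16_IFNg regions 52.5%, beside 62.1% of all regions.

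For the gene starts that lead these groups, the RefSeq promoter sequences of GRCm38.p6 (250 bases before the start to 50 after it, 5′ to 3′ on the gene's strand) are shown to let a reader see what kind of promoter appeared in 1 group only. Capitals mark matches on either strand to the CCAAT box (CCAAT, bound by NFY), the ETS site (CCGGAAGT) and the M-box (CATGTG, read by MITF and other E-box factors). Hook1 (chr4:95967129-95967428, plus strand) and Ckap4 (chr10:84533839-84534138, minus strand) were called in Res499 only; Mcm10 (chr2:5012742-5013041, minus strand) and Enox2 (chrX:49288193-49288492, minus strand) in B16_IFNg only.
Hook1: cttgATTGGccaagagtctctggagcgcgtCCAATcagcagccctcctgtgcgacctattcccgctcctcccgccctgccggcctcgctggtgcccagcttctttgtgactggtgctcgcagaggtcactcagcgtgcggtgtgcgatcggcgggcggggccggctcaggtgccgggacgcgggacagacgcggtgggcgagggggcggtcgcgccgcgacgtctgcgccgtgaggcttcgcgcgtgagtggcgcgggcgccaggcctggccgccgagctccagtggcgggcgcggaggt
Ckap4: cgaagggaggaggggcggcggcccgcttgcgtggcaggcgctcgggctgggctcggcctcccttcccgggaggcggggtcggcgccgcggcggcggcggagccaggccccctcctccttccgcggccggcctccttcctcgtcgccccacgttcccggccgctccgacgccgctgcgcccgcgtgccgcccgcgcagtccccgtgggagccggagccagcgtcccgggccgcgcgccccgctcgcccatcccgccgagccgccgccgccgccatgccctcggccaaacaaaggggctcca
Mcm10: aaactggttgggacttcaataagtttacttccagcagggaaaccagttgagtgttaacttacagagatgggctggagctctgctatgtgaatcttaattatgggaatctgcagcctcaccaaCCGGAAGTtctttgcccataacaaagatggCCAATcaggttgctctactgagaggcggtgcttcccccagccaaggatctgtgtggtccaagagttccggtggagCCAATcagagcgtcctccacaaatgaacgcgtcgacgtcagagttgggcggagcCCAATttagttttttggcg
Enox2: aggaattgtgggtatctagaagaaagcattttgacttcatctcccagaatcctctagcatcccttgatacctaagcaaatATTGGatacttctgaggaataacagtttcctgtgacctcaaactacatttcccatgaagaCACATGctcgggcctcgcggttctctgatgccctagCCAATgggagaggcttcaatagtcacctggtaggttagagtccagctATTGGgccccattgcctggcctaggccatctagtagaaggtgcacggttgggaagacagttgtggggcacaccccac
The Ckap4 window held none of the 13 motifs searched, and the Hook1 window held the CCAAT box alone. Mcm10 had the CCAAT box and the ETS site, and Enox2 the CCAAT box and the M-box.

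Over all promoters whose start lay inside a region of either kind, 10 of 31 (32.3%) of the Res499 promoters and 15 of 29 (51.7%) of the B16_IFNg promoters held a CCAAT box, beside 37.6% of all 32619 promoters and 44.4% of those open in all 6 libraries. The interferon-stimulated response element core (GAAANNGAA) was found in 2 of 31 Res499 and 1 of 29 B16_IFNg promoters, beside 8.53% of all promoters and 5.29% of those open in all 6 libraries. A gamma-activated site (TTCNNNGAA) was found in 3 of 31 and 0 of 29, beside 8.34% and 5.83%. An AP-1 site (TGANTCA, bound by JUN and FOS dimers) was found in 4 of 31 and 2 of 29, beside 7.85% and 3.02%. The cAMP response element (TGACGTCA) was found in 1 of 31 and 3 of 29, beside 1.80% and 3.93%, and the NRF1 motif (GCGCATGCG) in 0 of 31 and 3 of 29, beside 1.75% and 5.58%. The M-box was found in 4 of 31 and 3 of 29, beside 14.2% and 5.85%, and the ETS site in 3 of 31 and 4 of 29, beside 3.91% and 9.66%. Both motifs marked only in the B16_IFNg sequences above thus occurred in promoters of either kind. The GC box (GGGGCGGGG) was found in 6 of 31 and 3 of 29, beside 11.5% and 28.4%, and the TEAD site (GGAATG) in 1 and 2, beside 14.6% and 9.87%. The YY1 site was found in 1 and 1 (beside 1.40% and 3.52%), the CLEAR E-box in 0 and 1 (0.788% and 1.75%) and the E2F site in 0 and 0 (1.08% and 2.54%). These are matches of letters on either strand, in windows of 300 bases, and describe the promoters only.

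The strongest Res499-only region was the start of Hook1, an adaptor that links cargo to microtubule motors (chr4:95966820-95967630). Its percentile rank was 65.2, 73.2 and 95.7 in Res499. In the full lists its summit held 20, 16 and 38 fragments in Res499, 12 and 8 in B16_IFNg replicates 1 and 2 with no peak in replicate 3, and 14, 24 and 28 in untreated B16. By rank, 2 of the 3 untreated libraries called it, at 38.8 and 35.8, below all 3 Res499 libraries.

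A region on chromosome 12 (chr12:43531865-43532212) had percentile ranks of 22.8, 66.3 and 73.7 in Res499. It had no peak in the full list of any B16_IFNg or untreated library. It lies 677856 bp from the nearest coding gene start, beyond the 50 kb used for naming. Only 1 other region of the 57 shared this absence from all 6 other lists: it lay 197 bp from the start of Tmeff1, a transmembrane protein, and was picked out after its values were seen.

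Further leading Res499-only regions lay at the starts of Fbxo46 (an F-box protein), Ccdc32, Pde8a (a cyclic AMP phosphodiesterase) and Ckap4 (an endoplasmic reticulum membrane protein), 98 bp from the start of Mef2c, 26600 bp from that of Jdp2 (a repressor of AP-1) and 19884 bp from that of Pisd (mitochondrial lipid synthesis). The Ccdc32 region was matched to an annotated gene end that may not be the start. The start of Fbxo46 (chr7:19119648-19119949) ranked evenly in Res499, at 58.2, 52.2 and 52.4, and was also called in all 3 untreated libraries, at 52.9, 46.4 and 42.3. B16_IFNg replicate 1 had a weak peak of 10 fragments there and the other two had none. Mef2c, a transcription factor of muscle and neural crest development, was the only gene of the pathway lists among the 57. Its region (chr13:83523754-83524888) ranked at 47.4, 90.7 and 12.3 in Res499, with summits of 17, 21 and 20 fragments, against 14, 8 and no peak in B16_IFNg. The spread of its ranks within Res499 was thus wide while its summits were alike.

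Among the regions called in B16_IFNg only, the strongest was the start of the zinc finger gene Gm14410 (chr2:177206197-177206746), with percentile ranks of 82.4, 90.4 and 60.2. Its summit held 22, 19 and 17 fragments in B16_IFNg, and 11, no peak and 13 in Res499. Untreated B16 ranked at 3.74, 95.9 and 95.9 there, so the untreated libraries spread more widely than the interferon-exposed ones. Gm14410 belongs to a family of near-identical zinc finger genes, and reads could be shared between copies.

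Mcm10, a factor that helps load DNA polymerase at replication origins, ranked at 53.8, 65.4 and 46.2 in B16_IFNg at its start (chr2:5012570-5012931). The summit held 17, 14 and 17 fragments there, against 11 in Res499 replicate 1 and no peak in the other two. All 3 untreated libraries called it, at 14.1, 57.7 and 84.1. Another cell cycle gene, Rbl1 (p107, a pocket protein that restrains E2F), had 17, 11 and 14 fragments in B16_IFNg and 12, no peak and 13 in Res499, so its raw summits overlapped.

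The remaining list genes with a start called in B16_IFNg only were Eef2, the translation elongation factor that moves the ribosome, and Aifm1, a mitochondrial protein of respiration and cell death on chromosome X. Eef2 had 20, 17 and 17 fragments in B16_IFNg and 14, no peak and 19 in Res499, which overlap. Aifm1 had 17, 11 and 12 in B16_IFNg and 10, no peak and 13 in Res499, which overlap as well. Other leading regions lay at the start of Enox2 and near Slc6a9 (a glycine transporter, 705 bp), AI429214 (6009 bp), Crip2 (7221 bp), Foxk1 (29518 bp) and Fat1 (29921 bp). The Crip2 region (chr12:113132726-113133015) had summits of 21, 17 and 19 in B16_IFNg and no peak in any Res499 list, and 2 of the 3 untreated libraries called it, at 74.4 and 48.5. It was 1 of 17 with no peak in any full Res499 list, and all 17 had a peak in at least 1 untreated library.

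**Figure D2:**
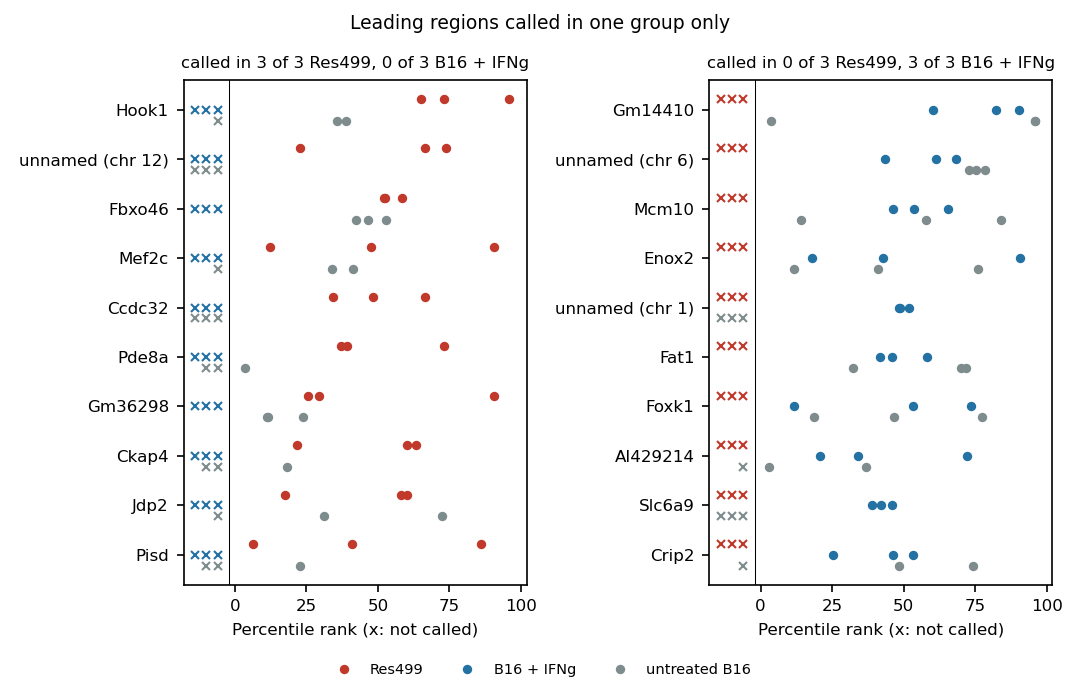
Percentile rank (horizontal axis; 100 is the strongest of 9214 peaks) of the 10 leading regions called in Res499 only (left) and in B16_IFNg only (right), each dot 1 library; crosses left of the line are libraries that did not call the region. Untreated libraries, in grey, called 16 of these 20 regions; the chromosome 12 region, Ccdc32, Slc6a9 and the region nearest Cd34 have no grey dot.

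In untreated B16, 9 of the 57 Res499-only regions were called in all 3 libraries, 30 in 1 or 2 and 18 in none. Of the 80 B16_IFNg-only regions, 17 were called in all 3, 49 in 1 or 2 and 14 in none. Chromosome X held 4 of the 80 B16_IFNg-only regions and none of the 57, beside 1.66% of all regions. These 4 were the starts of Enox2, Aifm1, Nono (an RNA-binding protein) and the pair Cetn2 and Nsdhl. Over all used peaks, X held 1.09%, 0.955% and 1.11% in Res499 and 1.39%, 1.67% and 1.18% in B16_IFNg. The groups did not overlap, and the difference of -0.365 points had an exact permutation p of 0.1, the smallest possible. The groups overlapped when peaks were ranked by fold enrichment (-0.297 points, exact permutation p = 0.3) or when all deposited peaks were used (-0.454, exact permutation p = 0.2), and without B16_IFNg replicate 2 the difference was -0.237. Untreated B16 had 1.31%, 1.96% and 1.48%. An X difference was known from earlier results of these data, and within fragment classes, explained with the processing, it was -0.293 points (exact permutation p = 0.167, again the smallest possible).

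At the 4937 regions called in all 6 libraries, no site passed the test between the groups. limma on percentile ranks with Benjamini-Hochberg adjustment called 0 regions higher (0%) and 0 lower (0%) in Res499, with a lowest adjusted p of 0.904. At an unadjusted p under 0.05 there were 121 higher and 130 lower. Ranks without overlap between the groups were found at 258 regions higher (5.23%) and 271 lower (5.49%). With 3 libraries against 3, 1 arrangement in 20 separates the groups in each direction, so nothing can be read from these shares. On simulated data this rank test missed large changes, so its 0 calls do not show that the sites are equal. A second fit on log2 summit pileup, chosen after the rank test had called nothing, also called 0 regions in either direction (lowest limma adjusted p = 0.0881; 178 higher and 177 lower at an unadjusted p under 0.05). Both fits took only regions called in all 6 libraries, where the weakest used summit of a library held 8 to 14 fragments. A site that fell out of the used peaks of any of the 6 was not tested, so these 0 calls do not cover it. Without B16_IFNg replicate 3, the library with 3 weeks of interferon, limma on pileup called 13 regions higher and 2 lower. Leaving out B16_IFNg replicate 2 gave 1 and 0, and leaving out each of the other 4 libraries gave 0 and 0. B16_IFNg replicate 3 is also the only library of its group with long fragments, and its time and its fragment class cannot be told apart. Without it, Res499 keeps a library with long fragments and B16_IFNg has none. Of the 13 regions called higher then, only that of Prkci lay at a gene start. Another, 38050 bp from Filip1l, had 223, 185 and 287 fragments in Res499 and 108, 106 and 234 in B16_IFNg. Untreated B16 had 672, 306 and 362 there. The central 90% of differences lay between -0.35 and 0.36 on the log2 scale.

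The region nearest to a call by pileup was the start of Pclo, a scaffold protein of the presynaptic active zone (chr5:14514664-14515346). Its summit held 36, 24 and 44 fragments in Res499 and 21, 22 and 12 in B16_IFNg, which do not overlap. The difference was 0.90 ± 0.20 (SE) on the log2 scale (limma, adjusted p = 0.0881). Untreated B16, with higher raw summits throughout, had 24, 36 and 34 fragments there. By rank the site stood at 98.9, 96.5 and 98.5 in Res499 and 69.4, 89.4 and 1.48 in B16_IFNg. In untreated B16 it stood at 32.8, 74.2 and 53.7.

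By rank, the regions nearest to a call and higher in Res499 lay at the starts of Tmem70, Bms1, Kdsr, Atp11b, Sepsecs, Kdm1b with Tpmt, Arpc2, Ndufaf8 with Tepsin, Dipk1a and Hsp90aa1. For Tmem70, Sepsecs, Dipk1a and Hsp90aa1 no stranded start was given, and the match was to an annotated gene end that may not be the start. Tmem70, an assembly factor of mitochondrial ATP synthase (chr1:16665134-16665591), ranked at 65.7, 74.1 and 63.8 in Res499 and at 1.35, 6.25 and 20.3 in B16_IFNg, a difference of 58.6 ± 13.7 (SE) percentile points (limma, adjusted p = 0.904). Its summits of 18, 16 and 22 against 14, 10 and 14 fragments are a difference of few fragments. Bms1, a GTPase of ribosome assembly (chr6:118419222-118419909), was a strong site in every library, with ranks of 97.9, 98.0 and 98.8 in Res499 and 89.1, 89.2 and 90.5 in B16_IFNg. Kdsr, an enzyme of sphingolipid synthesis (chr1:106759183-106760218), had summits of 31, 33 and 41 against 30, 18 and 22. Hsp90aa1, the inducible chaperone HSP90, had ranks of 97.6 to 98.4 against 87.8 to 94.0. None of these 10 passed.

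Nearest to a call and lower in Res499 were the starts of Sco2, Phb, Trmu, Klf13, Mindy4, Zfp322a, Tshz1 with Zadh2, Thumpd3 and Ints14, and a site on chromosome X that lies 95558 bp from Rab39b. The site of Tshz1 with Zadh2 was matched to an annotated gene end that may not be a start. Sco2, an assembly factor of cytochrome c oxidase (chr15:89373329-89374375), ranked at 8.64, 5.95 and 3.42 in Res499 and at 88.3, 63.1 and 64.8 in B16_IFNg, a difference of -66.1 ± 14.0 (SE; limma, adjusted p = 0.904). Its summits were 17, 11 and 21 against 29, 17 and 23 fragments, which overlap on the raw scale. Phb, a chaperone of the inner mitochondrial membrane, and Trmu, which modifies mitochondrial transfer RNA, had rank differences of -60.4 and -59.0. Klf13, a zinc finger factor of the KLF family (chr7:63938402-63939645), ranked at 74.2, 66.7 and 76.4 in Res499 and at 95.8, 95.8 and 97.2 in B16_IFNg. The site on X (chrX:75673789-75674590) had 20, 17 and 31 fragments against 37, 30 and 44 and a log2 pileup difference of -0.76 ± 0.18 (SE; limma, adjusted p = 0.141). It too failed the threshold.

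**Figure D3:**
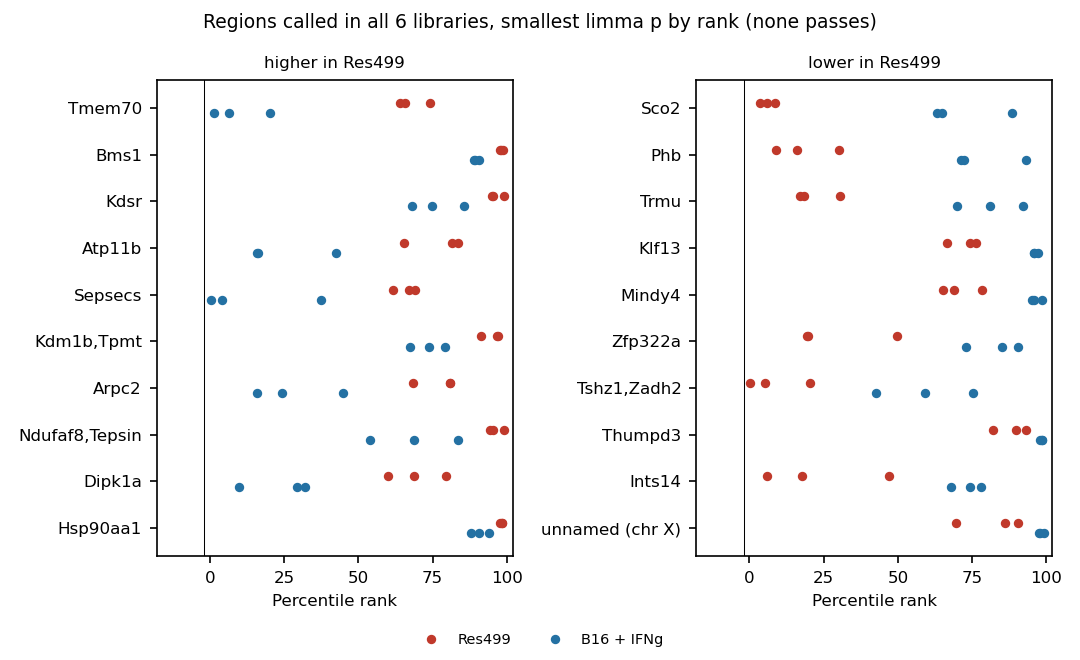
Percentile rank (horizontal axis) in the 6 libraries of the 20 regions with the smallest limma p, those higher in Res499 on the left and lower on the right; each dot is 1 library. The groups separate at each of these regions by selection, and the lowest adjusted p over all 4937 regions is 0.904.

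Summed over libraries, starts of interferon response genes held similar numbers of calls in the groups, with no test. Of 50 interferon-stimulated genes, 47 were matched and 18 had a called start region, with 26 calls over the Res499 libraries and 27 over the B16_IFNg libraries. By library there were 7, 9 and 10 calls in Res499 and 13, 5 and 9 in B16_IFNg, a wider spread. Trim21 and Nampt were open in all 6. These 2 were the only ones of the 18 that limma could test, and as at all 4937 regions neither passed. The strict calls of 1 group only included 0 of the 18, and with shares of 0.387% and 0.543% over all regions nothing can be read from that. Of 30 genes of the JAK-STAT pathway and the IRF family, 27 had a called start (60 calls against 65), and in the 13 open in all libraries the median rank difference was 4.18 percentile points, beside -0.14 over all 4937. Irf1 had 16, 13 and 21 fragments in Res499 and 24, 14 and 16 in B16_IFNg, a log2 difference of -0.13 ± 0.20 (SE; limma, adjusted p = 0.966). Socs1, the feedback inhibitor of JAK kinases, ranked at 9.26, 33.9 and 21.8 against 48.7, 30.1 and 80.6, and its pileup difference was -0.28 ± 0.21 (SE; limma, adjusted p = 0.842).

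Antigen presentation genes had 15 of 23 starts called (32 calls against 33) and a median log2 pileup difference of 0.09 at the 8 open in all 6 libraries, beside 0.00 over all regions. B2m, the light chain of class I molecules, had 17, 18 and 26 fragments in Res499 and 26, 12 and 21 in B16_IFNg. The start shared by Tap1 and Psmb9, a peptide transporter and an immunoproteasome subunit that face each other, had 20, 18 and 27 against 17, 15 and 21, a log2 difference of 0.26 ± 0.21 (SE; limma, adjusted p = 0.876). It was called in 2 of 3 untreated libraries. Nlrc5, the transactivator of class I genes, had its start called in 2 B16_IFNg and no Res499 library, and was picked out after its values were seen. Cd274 had no called start region in any of the 6 libraries.

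No start of a melanocyte gene open in all 6 libraries passed either. Mitf had 31, 17 and 38 fragments in Res499 and 27, 19 and 24 in B16_IFNg, a log2 difference of 0.21 ± 0.19 (SE; limma, adjusted p = 0.895). Dct and Tyr, enzymes of melanin synthesis, were called in 2 and 1 libraries of each group. Over the melanin list 14 of 18 starts were called, with 24 calls in each group. Axl and Fosl1, linked to dedifferentiated melanoma, had no called start. Jun had 31, 21 and 41 fragments against 38, 32 and 32, and over the list of 18 AP-1 and ATF genes the calls numbered 37 in each group.

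Over all 15 pathway lists, 331 of 424 genes had a called start. Of these 331, 1 was called in Res499 only (0.302%, beside 0.387% of all regions) and 4 in B16_IFNg only (1.21%, beside 0.543%). At the 155 open in all 6 libraries, ranks were without overlap and higher in Res499 for 6 (3.87%) and lower for 4 (2.58%), below the shares of all regions. Of those 6, 5 stood in the list of glycolysis and hypoxia genes, which had 15 starts open in all libraries, beside 5.23% of all regions: Hk1 (hexokinase), Slc16a1 (a lactate transporter), Pdk1 (a kinase that inhibits pyruvate dehydrogenase), Hif1a (the hypoxia factor) and Vhl (which marks that factor for degradation). Pdk1 had 22, 18 and 33 fragments in Res499 and 16, 14 and 19 in B16_IFNg, with a log2 difference of 0.51 ± 0.21 (SE; limma, adjusted p = 0.499). Hif1a had 33, 26 and 42 against 29, 16 and 35 (0.36 ± 0.19, SE; limma, adjusted p = 0.701). On centred pileup 2 of the 15 were higher without overlap, beside 5.87% of all regions, the list's median rank difference was -0.67, and none of the 5 passed the test. The 6th gene was Ezh2, the methyltransferase of the Polycomb repressive complex. Lower in Res499 without overlap were Etv5 and Hras of the MAPK list, Mad2l1 of the spindle checkpoint and the translation factor Eif4g2, with adjusted p-values of 0.904 to 0.984 in limma on ranks.

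Differences between the groups were also summed along the chromosomes. In regions open in all 6 libraries, chromosome 5 (304 regions) had a mean percentile rank of 63.2, 64.3 and 64.2 in Res499 and 56.2, 60.3 and 58.4 in B16_IFNg, without overlap. With peaks ranked by fold enrichment its values were 62.1, 63.5 and 59.5 against 56.9, 60.3 and 57.8, which overlap, with means of 61.7 and 58.4 (exact permutation p = 0.2) in place of 63.9 and 58.3. Chromosome 7 (347 regions) ran the other way, with 60.4, 60.8 and 60.8 against 64.3, 64.5 and 63.8. Chromosome 11 did not overlap either, with a difference of -1.85, and the other 17 chromosomes overlapped. An exact permutation test over 20 chromosomes cannot pass (adjusted p = 0.667 for these 3). A limma fit over chromosomes, added after these means were seen, called chromosome 5 higher by 5.59 ± 1.23 (SE) percentile points and chromosome 7 lower by 3.57 ± 0.846, each with an adjusted p of 0.0343. On log2 summit pileup it called chromosome 5 only (0.12 ± 0.02, SE; limma, adjusted p = 0.0112). The chromosome 5 call by pileup did not survive leaving out Res499 replicate 1 (limma adjusted p = 0.0592), Res499 replicate 3 (0.0658) or B16_IFNg replicate 1 (0.0628). By rank it was lost without Res499 replicate 1 (0.101), Res499 replicate 3 (0.0972), B16_IFNg replicate 1 (0.113) or B16_IFNg replicate 3 (0.106). The chromosome 7 call was lost whichever of the 6 libraries was left out, with limma adjusted p-values of 0.0851 to 0.159. On log2 pileup the chromosome 5 difference lay between 0.11 and 0.14 when each library was left out. Its direction could not change, since the values of the groups did not overlap.

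Centred on each library's median, the mean log2 summit pileup of chromosome 5 was 0.01, -0.02 and -0.00 in Res499, -0.14, -0.14 and -0.09 in B16_IFNg, and -0.17, -0.18 and -0.17 in untreated B16. The 3 Res499 libraries lay above all 6 others. That difference from untreated B16 was not tested here. Of the 304 regions, 70.1% had a higher mean in Res499 than in B16_IFNg, beside 50.7% of all 4937. Chromosome 5 held 5 of the 57 Res499-only regions and 1 of the 80 B16_IFNg-only regions, beside 6.18% of all regions.

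To see where on the chromosomes this lay, the genome was split into windows of 20 Mb, and 128 windows with at least 10 regions were tested by limma on their mean centred log2 pileup, again a choice made after the chromosome means were seen. Of these, 6 windows were higher in Res499 (4.69%) and 1 was lower (0.781%). The 6 were on chromosomes 5 and 10. Leaving out B16_IFNg replicate 1 left 0 calls in either direction (lowest limma adjusted p = 0.0915). The calls higher in Res499 fell to 2 when Res499 replicate 2 was left out, to 3 when Res499 replicate 1 or B16_IFNg replicate 2 was, and to 4 when B16_IFNg replicate 3 was, and stayed at 6 when Res499 replicate 3 was. No window was called lower without Res499 replicate 3 or B16_IFNg replicate 2 either. The 1 window called lower kept its call in 2 of the 6 leave-outs. Each of the 7 kept its direction without each library in turn. Their selection on the same libraries favours this, so nothing about stability can be read from it. On percentile ranks in place of pileup the counts were 1 and 1.

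On chromosome 5 the 4 called windows were chr5:20000001-40000000 (61 regions), chr5:40000001-60000000 (17), chr5:60000001-80000000 (33) and chr5:120000001-140000000 (79). In the second of these the values were -0.01, 0.10 and 0.12 in Res499 and -0.14, -0.15 and -0.09 in B16_IFNg, without overlap, and untreated B16 had -0.14, -0.10 and -0.14. The difference was 0.20 ± 0.05 (SE; limma, adjusted p = 0.00452), or 1.15-fold. In the fourth, with 0.08, 0.01 and 0.06 against -0.17, -0.16 and -0.06, it was 0.18 ± 0.05 (SE; limma, adjusted p = 0.015). Between these windows the order was the reverse: chr5:80000001-100000000 had -0.32, -0.27 and -0.27 in Res499 and -0.20, -0.21 and -0.24 in B16_IFNg (difference -0.07 ± 0.04, SE; limma, adjusted p = 0.381). The higher level was thus not even along the chromosome.

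Within the called windows most sites had a difference of the same sign, which the choice of the windows favours. On chromosome 5, 49 of 61, 14 of 17, 26 of 33 and 64 of 79 regions had a higher mean in Res499. Leading sites, by pileup p within a window, lay at Tomm7 (a subunit of the mitochondrial import pore), Tbc1d14 and Afap1 in the first, Sepsecs (which makes selenocysteine transfer RNA) and Adgra3 in the second, Noa1 with Polr2b (a subunit of RNA polymerase II) in the third and Ogfod2 with Acad10 and Brap in the fourth. Their log2 differences ran from 0.46 to 0.68, and none of these sites passed alone. Of the list genes in these windows, Mcm7 and Fosl2 differed by 0.12 and 0.08.

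On chromosome 10 the windows chr10:100000001-120000000 (28 regions) and chr10:120000001-140000000 (30) were called. In the former the values were 0.15, 0.00 and 0.05 in Res499, -0.21, -0.04 and -0.18 in B16_IFNg and -0.28, -0.09 and -0.09 in untreated B16, a difference of 0.21 ± 0.05 (SE; limma, adjusted p = 0.00217) with 26 of 28 regions higher in Res499. In the latter the difference was 0.16 ± 0.05 (SE; limma, adjusted p = 0.0208). These windows hold the melanocyte genes Pmel and Erbb3, whose own starts differed by -0.05 and -0.07, and Stat2 of the interferon pathway, at 0.20. The window called lower was chr4:20000001-40000000 (15 regions), with -0.12, 0.04 and -0.06 against 0.13, 0.14 and 0.08 and a difference of -0.16 ± 0.05 (SE; limma, adjusted p = 0.0208). Casp8ap2, a regulator of histone gene expression, led it with -0.42.

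**Figure D4:**
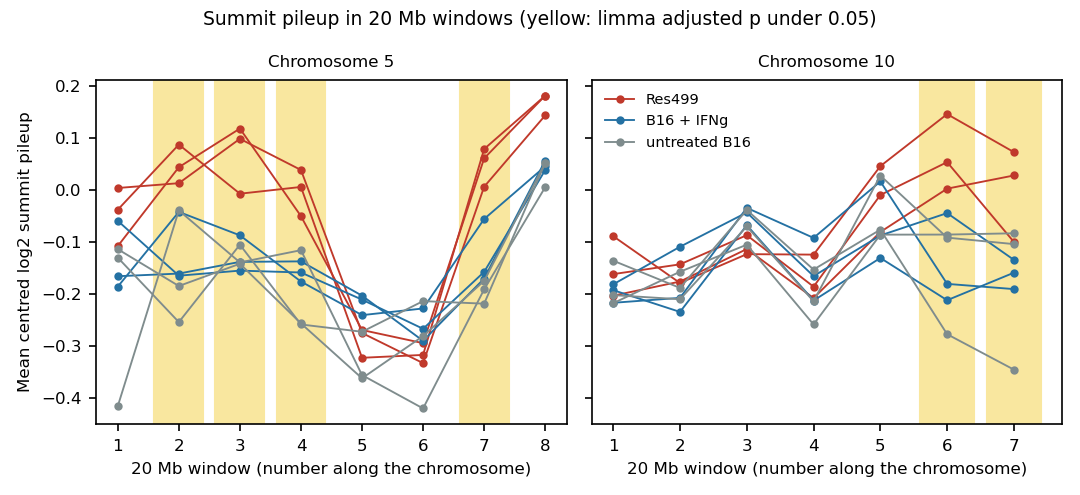
Mean centred log2 summit pileup (vertical axis) in 20 Mb windows numbered along chromosomes 5 and 10 (horizontal axis), each line 1 library; yellow marks windows with a limma adjusted p under 0.05. In the 4 marked windows of chromosome 5 all 3 Res499 lines lie above all 3 B16_IFNg lines, and in windows 5 and 6 below them.

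The local background of the same peaks moved with their summits, and its part in the window calls was not tested. Over the 128 windows the correlation between the difference in log2 pileup and the difference in log2 local background was 0.83, a description, since both come from the same peaks and libraries. limma on the background called 6 windows higher (4.69%) and 10 lower (7.81%) in Res499, among them 4 of the 6 windows higher by pileup and the 1 lower. In all 7 the backgrounds of the groups did not overlap. On chr10:120000001-140000000 the background was 0.10, 0.03 and 0.01 in Res499 and -0.23, -0.23 and -0.26 in B16_IFNg (difference 0.29, limma adjusted p = 1.65e-05), larger than the difference at its summits. Over chromosome 5 the background was 0.03, 0.01 and -0.01 in Res499, -0.09, -0.12 and -0.05 in B16_IFNg and -0.11, -0.17 and -0.14 in untreated B16. No input DNA was analysed here, so accessibility and the amount of DNA from these stretches cannot be told apart.

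**Figure D5:**
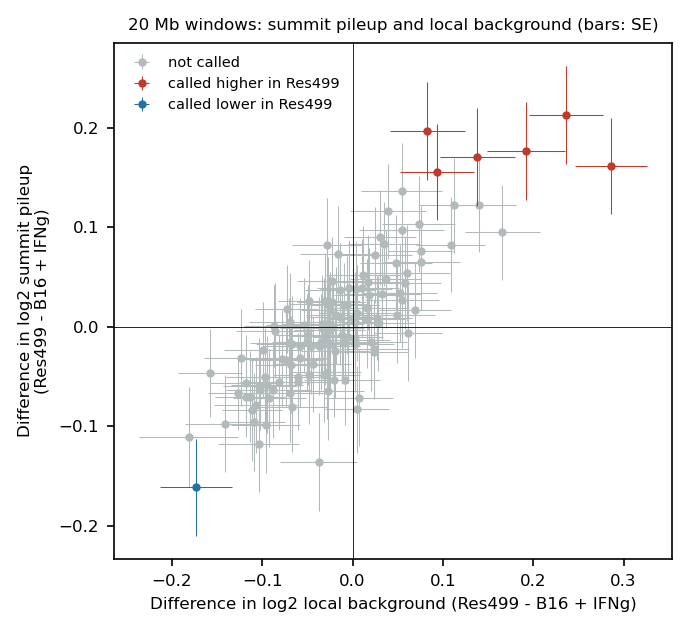
Difference between Res499 and B16_IFNg in mean log2 summit pileup (vertical axis) against that in mean log2 local background (horizontal axis) for 128 windows of 20 Mb; bars are SE, and colours mark windows called by pileup. The 6 windows called higher lie in the upper right and the 1 called lower in the lower left.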

How the data were processed

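Nuclei of sorted tumour cells were profiled by ATAC-seq, and the authors deposited 1 peak list per library, called without pooling. Per the submitters' processing notes, CASAVA, cutadapt 1.9, Bowtie2 2.2.4 and MACS2 were used with GRCm38 (mm10). Which MACS2 release and options were run, and whether reads were shifted, is not given in the sources used here. Deposited values are positions, a score, the fold enrichment (a ratio), −log10 p and −log10 q.

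The summit pileup and local background were solved from the deposited fold and −log10 p, taking the Poisson tail and a pseudocount of 1. Whole fragments were recovered within 0.01 of the −log10 p for 100% of peaks in each library. In each list the 9214 peaks with the highest −log10 p on chromosomes 1 to 19 and X were kept, and overlapping or touching peaks were merged; 1 shared base made a call. A shortest peak of at least 150 bp marked a class of longer fragments (replicate 3 of Res499 and of B16_IFNg, and untreated replicates 1 and 3), and values were also compared within classes. Replicate numbers did not pair libraries (correlations of deviations 0.03, -0.03 and -0.00).

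limma 3.58.1 in R 4.3.3 (trended variance except over the 20 chromosomes, Benjamini-Hochberg, threshold 0.05) compared 3 with 3 libraries. An exact permutation test, two-sided, served for single values per library. The members, lists and rules were chosen with earlier results of these data known, and 7 kinds of fit (pileup, chromosomes by rank and by pileup, windows of 20 and 10 Mb, background, windows by rank) were added after seeing the data. The tests were tried on simulated data: the rank fit missed large changes, and the rule for regions of 1 group only also picked regions that had not been changed. Genes were named by the nearest coding start in RefSeq GRCm38.p6 within 50 kb. For 17274 of 21631 genes the start was stranded, and either annotated end was used otherwise. Exons and introns were not given. The named regions are the 10 leading regions called in each group only, the 10 with the smallest limma p in each direction, list genes with such a region, and 14 genes named always, of which 1 is not reported here. Other genes in the text (Pclo, Prkci, Filip1l, Trim21, Nampt, Pmel, the list genes whose ranks did not overlap, and genes of the called windows) were chosen after their values were seen. Of 448 list genes 3 had no match.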

Additional observations from a re-analysis of the deposited data

How the results depend on the processing

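Calls of 1 region remained 0 in both directions for limma on ranks under each alternative run: all deposited peaks, 4607 peaks, ranking by fold, 50% cover, merging up to 250 bp, normal scores, ranks among common regions, calls in at least 5 libraries, full lists, fragment class, the replicate block, each library left out, and the longer lists of 11179 peaks without Res499 replicate 2, with lowest limma adjusted p-values of 0.304 to 0.988. With the replicate number as a block, limma on pileup called 1 region higher, Pclo, and 0 lower; block or not, the ranks had 0 calls, and windows stayed at 6 higher and 1 lower. For values per library the block gave the same differences with exact p-values of 0.25 (share on X) and 0.5 (the others), where 0.25 is the smallest possible. On pileup, leaving out a library gave 0 to 13 regions higher and 0 to 2 lower.

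Regions called in Res499 only and in B16_IFNg only numbered 33 and 141 over all deposited peaks, where lists are unequal, 634 and 778 with at most 1 library missing or extra, 9 and 17 when absence was judged in full lists, and 184 and 176 with the longer lists. Leaving out a library gave 124 to 173 and 158 to 252. Windows of 20 Mb higher and lower numbered 6 and 10 on background, 1 and 1 on ranks, 3 and 0 in the fit of 9 libraries and 5 and 0 at 10 Mb; leaving out a library gave 0 to 6 and 0 to 1. Chromosomes without overlap by rank numbered 3, and 2 when ranked by fold, where chromosome 5 overlapped; limma on pileup called 1 and limma on ranks 2. The Jaccard difference was -0.00351 over all deposited peaks and -0.00698 with 50% cover, and lay between -0.00444 and 0.0109 when a library was left out. Without a library, the difference in peaks lay between -3033 and 50.8, in covered length between -1.20 and 0.0603 Mb, and in the share at gene starts between -0.666 and 1.80 points. The share at gene starts differed by 3.96 points over all deposited peaks and 0.474 when ranked by fold, covered length by -0.306 Mb at equal numbers of peaks, and peaks by -905 within fragment classes. Where not stated, the cause was not tested. All 189 values of 43 named regions with a library left out kept their direction and side of the threshold or, where untested, moved by less than 1 SD. For the ranked regions the direction could not change, since their groups were separate by selection. For the untested regions the mean of 2 of 3 values cannot lie 1 SD from the mean of all 3. Nothing about stability can be read from this count.

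Summits of 14 to 23 fragments in the median peak, 3 libraries a group and 1 short list limit what a single site can show.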

Other observations

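The first window of chromosome 9 (chr9:1-20000000, 20 regions) was high in both Res499 (0.36, 0.34 and 0.26 in mean centred log2 pileup) and B16_IFNg (0.40, 0.52 and 0.36), and low in untreated B16 (-0.01, -0.14 and 0.02). It was chosen after its values were seen. Between Res499 and B16_IFNg its pileup differed by -0.11 ± 0.05 (SE; limma, adjusted p = 0.25) and its local background by -0.18 ± 0.05 (SE; limma, adjusted p = 0.0289), and the difference of either from untreated B16 was not tested. Its local background was -0.05, 0.09 and -0.13 in Res499, 0.14, 0.29 and 0.02 in B16_IFNg, and -0.29, -0.26 and -0.17 in untreated B16.

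The gene starts of Rlim and Egln3 were likewise chosen after their values were seen. Rlim, a ubiquitin ligase that acts in X inactivation, had 19, 18 and 18 fragments in Res499 and 34, 26 and 33 in B16_IFNg, with a log2 difference of -0.77 ± 0.20 (SE; limma, adjusted p = 0.141). Egln3, a prolyl hydroxylase that acts on the hypoxia factor, was called in Res499 only, with 17, 14 and 19 fragments against 9, no peak and 11 in B16_IFNg and was called in 2 of the 3 untreated libraries.

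Peaks on chromosome Y, outside the chromosomes compared, numbered 3, 0 and 0 in Res499, 2, 3 and 2 in B16_IFNg, and 3, 5 and 5 in untreated B16.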
